A study of Mus musculus with 8 samples.

Results

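The response of wild-type (WT) mouse macrophages to interleukin-6 (IL-6) was measured as the difference between 2 libraries of WT cells given the cytokine and 2 libraries of WT cells left without it. These 4 libraries belong to a series of 8, and their comparison covers every gene that passed a filter on low counts, 13721 of the 55376 genes in the table. The series asks how a reduced dose of Dnmt3a, a DNA methyltransferase gene, alters blood-derived cells, and the other 4 libraries come from macrophages of the genotype DNMT3A-HET (HET). Marrow came from male Mus musculus 13 weeks old, 3 mice of each genotype, and was grown into macrophages in medium with the macrophage growth factor M-CSF at 50 ng/mL. All groups therefore share the M-CSF culture. IL-6 at 10 ng/mL was present from day 6 for the last 2 days, and RNA of both groups was taken on day 8. Neither the mouse behind each library nor any pooling of mice is stated in the labels, so the p-values speak only to differences among these libraries, and part of that spread may be technical. The promoter or recombinase behind the HET genotype is not given in the labels.

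IL-6 binds the receptor chain Il6ra, and the pair engages the shared signalling chain gp130 (Il6st). Gp130 activates JAK kinases, which phosphorylate STAT3, and STAT3 then moves to the nucleus and induces genes that include its own feedback inhibitor Socs3. In macrophages IL-6 is known both as an inflammatory signal and as one that raises the receptor for IL-4.

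Library totals in WT were 24881197 and 22401880 counts in control 1 and 2 and 24641277 and 18926641 in IL-6 1 and 2, and HET libraries reached 50137897. A gene's level is given as its count in each library scaled to the library's size and composition (CPM), and a floor of 3 counts corresponded to 0.121 to 0.159 CPM in WT. A set of 7 macrophage markers summed to between 11360 and 13500 CPM in all 4 libraries. Markers of T and NK cells summed to at most 0.0441 CPM and markers of B cells to at most 1.55 CPM, with Pax5 at 0. Not every set was this low. Monocyte markers, mostly Ccr2, summed to 36.8 and 43.7 CPM in control and 70.7 and 54.2 CPM in IL-6. Megakaryocyte markers, mostly Pf4, summed to 123 and 130 CPM in control and 197 and 202 CPM in IL-6. Endothelial markers, mostly Vwf and Kdr, summed to 142 and 113.5 CPM in control and 99.0 and 100.4 CPM in IL-6. Stromal markers summed to 3.35 and 9.05 CPM in control and to 11.5 and 4.98 CPM in IL-6. The 2 WT control libraries differed by a median of 0.168 on the log2 scale and the 2 WT IL-6 libraries by 0.148, against 0.0973 and 0.0828 in HET, so WT libraries of a group were further apart than HET libraries. The test pools the spread of all groups, and a fit to the 4 WT libraries alone called 1803 genes against 2515 in the pooled one described next. In bulk samples such as these, fewer cells of a type and less RNA per cell cannot be told apart.

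IL-6 shifted the expression of 2515 genes in WT macrophages, 18.3% of those tested. Expression rose for 1086 genes (7.91%) and fell for 1429 (10.4%). These shares are the background for the counts of every gene list below. The called share also depended on level, at 7.49% among the 3431 least abundant genes and 27.0% among the 3430 most abundant. A gene was called when the p from edgeR's quasi-likelihood test, adjusted by the Benjamini-Hochberg method over all 13721 genes, was under 0.05. Every fold change below is the log2 ratio of IL-6 to control with its standard error (SE), from 2 libraries a group. Most changes were modest. Among called genes the median rise was 1.43-fold and the median fall 1.47-fold, while 262 genes rose and 277 fell by at least 2-fold. Beyond 4-fold the rises outnumbered the falls, 82 to 49, and beyond 8-fold they did so 22 to 7. Called genes that rose made up 10.1% and 10.4% of transcripts in the control libraries and 16.3% and 16.1% in the IL-6 libraries, on a scale corrected for gene length (TPM). For those that fell the shares were 17.1% and 16.1% in control and 11.2% and 11.4% in IL-6. The libraries of the groups did not overlap for any called gene, but the same held for 52.6% of all tested genes. Without the library WT IL-6 1 the count of calls was 1569, and 1175 genes (8.56%) were called in each of the 4 fits that left out 1 WT library.

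**Figure D1:**
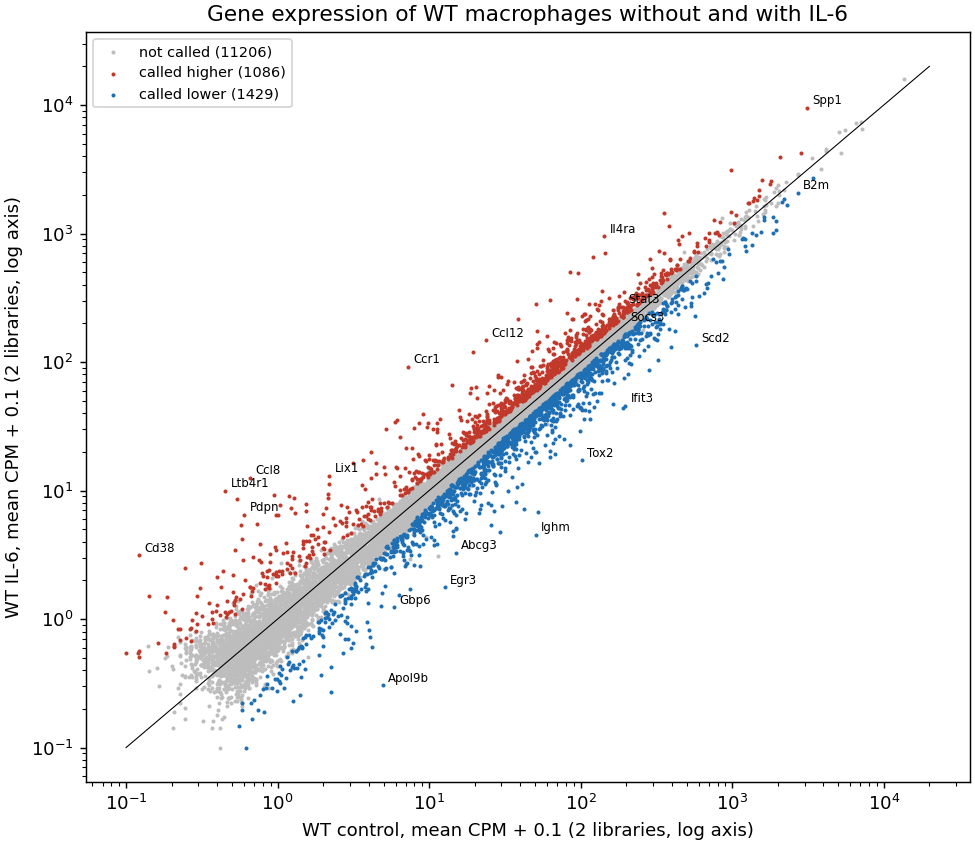
Mean CPM in WT control (x axis) against mean CPM in WT IL-6 (y axis), both on log axes after adding 0.1, for the 13721 tested genes. Each point is a gene, red where it was called higher (1086) and blue where it was called lower (1429), and the line marks equal levels. Spp1 is the most abundant of the labelled genes, and Ltb4r1, Ccl8, Ccr1 and Il4ra lie far above the line.

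The 15 largest rises among called genes with at least 5 CPM in 1 WT group included the chemoattractant receptors Ltb4r1 and Ccr1, the chemokines Ccl8 and Ccl12 and the matrix regulators Timp1 and Mmp14. Ltb4r1 (BLT1, the high-affinity receptor for leukotriene B4; chromosome 14, 55765962 to 55768494, build mm10) stood at 0.438 and 0.265 CPM in the control libraries and at 10.3 and 9.33 CPM in the IL-6 libraries, a change of 4.77 ± 0.32 (edgeR adjusted p = 1.92e-07). Ccl8, a chemokine that attracts monocytes, went from 0.637 and 0.485 to 10.4 and 14.5 CPM (4.44 ± 0.26, edgeR adjusted p = 4.65e-08). Ccr1 (chromosome 9, 123962124 to 123968692), a receptor for inflammatory CC chemokines, measured 7.69 and 6.58 CPM in control and 103 and 80.4 CPM with IL-6, which is 12.9-fold (edgeR adjusted p = 5.74e-10). For these 3 genes both IL-6 libraries lay far above both control libraries. Il4ra (chromosome 7, 125552120 to 125579474), the IL-4 receptor chain, was already abundant at 146 and 139 CPM and reached 911 and 998 CPM, a rise of 2.74 ± 0.09 (edgeR adjusted p = 4.55e-10). Ccl12, another monocyte chemoattractant, went from 21.6 and 25.6 to 148 and 148 CPM. The groups were wide apart for both genes, and the libraries of a group lay close together. Timp1, an inhibitor of matrix metalloproteinases that is a known IL-6 target in liver, measured 0.757 and 0.927 CPM in control and 9.97 and 8.36 CPM with IL-6 (3.45 ± 0.24, edgeR adjusted p = 2.36e-07).

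Of the other large rises, Mmp14, a membrane-bound metalloproteinase, changed by 3.10 ± 0.35, and Pdpn, the mucin-type glycoprotein podoplanin, by 3.67 ± 0.38. Fgr, a Src-family kinase of myeloid cells, rose from 0.717 and 1.46 to 8.68 and 9.27 CPM. Sirpb1c, an activating signal-regulatory protein, rose by 3.46 ± 0.34, and since Sirpb1a, Sirpb1b and Sirpb1c are near copies their counts are uncertain. Ambp (2.88 ± 0.20), which encodes a secreted protein precursor, Abtb2 (2.66 ± 0.22) and Lix1 (2.63 ± 0.17) were called in every fit that left out a WT library. Cd207, the C-type lectin langerin, measured 0.478 and 1.32 CPM in control and 8.23 and 4.39 CPM with IL-6, with wide spread inside each group. Its edgeR adjusted p of 0.00284 became 0.0648 without WT control 1 and 0.110 with limma voom. Sel1l3 changed by 2.99 ± 0.64 with an edgeR adjusted p of 0.0206, which was 0.219 without WT control 1, 0.151 without WT control 2, 0.133 without WT IL-6 1 and 0.118 without WT IL-6 2 and 0.367 with limma voom.

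The 15 largest falls among called genes at the same minimum of 5 CPM included the immunoglobulin chain Ighm, the interferon-induced Ifit3 and Ifit3b, the desaturases Scd1 and Scd2 and the transcription factors Egr3 and Tox2. Ighm (chromosome 12, 113418558 to 113422730), the immunoglobulin mu heavy chain, dropped from 60.3 and 40.4 to 3.10 and 5.73 CPM (-3.55 ± 0.25, edgeR adjusted p = 4.28e-06). The summed B cell markers were 1.39 and 1.55 CPM in control and 1.45 and 1.18 CPM in IL-6, far below the Ighm level in control. The part of B cells in the Ighm values was not tested. Egr3, an immediate early transcription factor, went from 13.4 and 11.7 to 1.41 and 1.93 CPM (-2.93 ± 0.24). Tox2, a high-mobility-group transcription factor, measured 101 and 102 CPM in control and 16.7 and 17.4 CPM with IL-6, and replicates of both groups nearly coincided. Rasgrp3, an exchange factor for Ras, fell from 198 and 183 to 46.3 and 40.7 CPM (-2.13 ± 0.14, edgeR adjusted p = 2.73e-07). Cmah, the enzyme that makes the sialic acid Neu5Gc, fell from 40.0 and 44.6 to 8.15 and 6.06 CPM (-2.56 ± 0.14). Kit, the receptor of stem cell factor, was low throughout, with 7.77 and 4.63 CPM in control and 1.32 and 1.55 CPM with IL-6 (-2.12 ± 0.30). Summed markers of mast cells and basophils, which carry Kit, were 0.637 and 0.485 CPM in WT control and 0.372 and 0.107 CPM in WT IL-6. The part of such cells in the Kit values was not tested. Abcg3, an ABC transporter, changed by -2.23 ± 0.16, and Gpr162, an orphan receptor, by -2.24 ± 0.32. The 2 control libraries were above both IL-6 libraries in all of these, which was a condition of their choice.

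**Figure D2:**
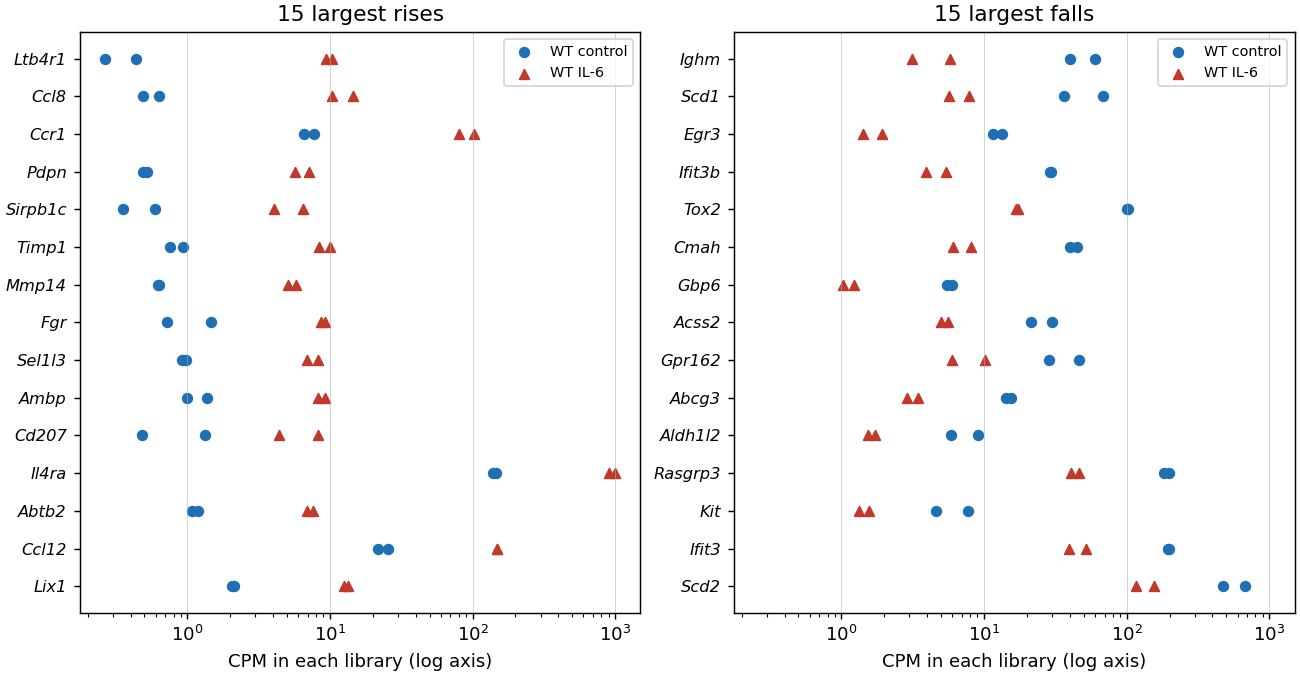
CPM in each library (log axis) for the 15 largest rises (left) and the 15 largest falls (right) among called genes with at least 5 CPM in 1 WT group. Circles are the 2 WT control libraries and triangles the 2 WT IL-6 libraries, so the distance between symbols of a kind shows the replicate spread, which is wide for Cd207 and narrow for Tox2 and Ccl12.

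Among low genes, 5 went from under 0.5 CPM in control to at least 2 CPM with IL-6, and 2 went the other way. Cd38, an ectoenzyme that consumes NAD, was at 0 and 0.0441 CPM in control, under the floor of 3 counts in both libraries, and at 2.69 and 3.38 CPM with IL-6 (edgeR adjusted p = 5.76e-06). A4galt, a glycolipid galactosyltransferase, went from 0.159 and 0.132 to 2.19 and 2.57 CPM, and Plat, tissue plasminogen activator, from 0.319 and 0.353 to 2.52 and 2.04 CPM. The adenosine receptor Adora3 went from 0.119 and 0.309 to 2.52 and 2.73 CPM, an uncertain value because 20.9% of its exon length overlaps another gene and the strand setting of the counting is not given. Ltb4r1, above, was the fifth. In the opposite direction Apol9b, an interferon-induced apolipoprotein L gene, fell from 5.34 and 4.37 to 0.248 and 0.161 CPM (edgeR adjusted p = 6.66e-06). Ramp1, a subunit of the CGRP receptor, fell from 2.67 and 2.52 to 0.455 and 0.429 CPM.

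Measured by transcript share, the 5 largest gains were those of Spp1, Fcrls, Tmsb4x, Ctsl and Ms4a6d. Spp1, the secreted phosphoprotein osteopontin, moved from 7121 and 6576 to 20130 and 21357 TPM and rose by 1.63 ± 0.09 (edgeR adjusted p = 4.08e-08), with 18.8% of its exon length shared with another gene. Fcrls, an Fc receptor-like scavenger receptor, moved from 598 and 509 to 2205 and 2261 TPM (2.04 ± 0.10), and Ms4a6d, a tetraspan membrane protein of macrophages, from 303 and 304 to 1470.4 and 1447 TPM (2.30 ± 0.08). Tmsb4x, the actin-sequestering peptide thymosin beta 4, rose by only 0.45 ± 0.08 but from a high level. Ctsl, the lysosomal cathepsin L, went from 559 and 545 to 1756 and 1716 TPM, with 26.8% of its exon length overlapped by another gene. The largest losses on the same scale were B2m, the light chain of MHC class I, at 11405 and 11620 TPM in control and 8784 and 8557 TPM with IL-6, and Ftl1, ferritin light chain, whose exons overlap by 34.6%. Lgals3, the lectin galectin-3 (-0.48 ± 0.08), and Ccl3, a CC chemokine (-0.90 ± 0.14), fell as well. These gains and losses were chosen among called genes whose groups did not overlap, so that separation was fixed by the choice.

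The IL-6 pathway itself moved in both directions. Of 38 tested genes of receptors, JAK-STAT3 signalling and feedback, 8 rose and 9 fell, with a median change of 0.02 against -0.01 over all tested genes, and without WT control 1 the rises were 5. The median ran from -0.06 without WT IL-6 2 to 0.06 without WT IL-6 1. Il6ra, the ligand-binding chain, measured 127 and 119.8 CPM in control and 93.8 and 97.0 CPM with IL-6 (-0.37 ± 0.08, edgeR adjusted p = 0.00325). Il6st, which encodes gp130, went from 207 and 192 to 162 and 166 CPM, a smaller fall (-0.28 ± 0.08, edgeR adjusted p = 0.0199) that was lost in several settings, at 0.0844 without WT control 1, 0.0952 without WT IL-6 1 and 0.0507 without WT IL-6 2 and 0.0511 with limma voom. Transcripts of both receptor chains thus measured slightly lower in both IL-6 libraries, although the call for Il6st was not stable. Stat3 rose from 193 and 185 to 255 and 281 CPM (0.51 ± 0.08, edgeR adjusted p = 5.01e-04). The kinase gene Jak1 rose by 0.26 ± 0.07, with an edgeR adjusted p of 0.0229 that was 0.0546 without WT control 1, 0.0848 without WT IL-6 1 and 0.0579 without WT IL-6 2. Socs3, the classic feedback inhibitor of gp130, measured 197 and 195 CPM in control and 181 and 208 CPM with IL-6, and the groups overlapped (-0.01 ± 0.09, edgeR adjusted p = 0.944). Socs1, a related inhibitor that also responds to interferon, fell from 2.75 and 3.13 to 1.20 and 1.23 CPM (-1.27 ± 0.25). Ptpn1, a phosphatase of JAKs, rose by 0.48 ± 0.07, and Il21r, a cytokine receptor, by 0.83 ± 0.08. Lifr, the gp130 partner for leukaemia inhibitory factor, rose by 0.76 ± 0.13. Bcl3, an atypical NF-kB inhibitor and STAT3 target, went from 17.6 and 24.5 to 31.6 and 37.5 CPM, called with an edgeR adjusted p of 0.0208 that became 0.218 without WT control 1, 0.0696 without WT IL-6 1 and 0.155 without WT IL-6 2 and 0.209 with limma voom. The transcript of Il6 itself was low, at 1.47 and 1.15 CPM in control and 0.620 and 0.697 CPM with IL-6 (edgeR adjusted p = 0.132).

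Interferon-induced genes fell almost as a block. Of 45 genes known as type I interferon-stimulated, all tested, 43 fell and 0 rose, with a median change of -0.83, and 40 were lower in each of the 4 fits that left out a WT library. The other two were Ifitm3 (-0.31 ± 0.11) and Ifit1bl1 (-0.53 ± 0.23), with edgeR adjusted p of 0.0814 and 0.138. Without WT control 2 the adjusted p of Ifitm3 was 0.00719 and without WT IL-6 2 it was 0.0311, and that of Ifit1bl1 was 0.0149 without WT control 1, all from edgeR. Ifit3 (chromosome 19, 34583531 to 34588731), an antiviral tetratricopeptide protein, measured 195 and 197 CPM in control and 51.6 and 39.6 CPM with IL-6 (-2.10 ± 0.12, edgeR adjusted p = 4.01e-08). Its close paralogue Ifit3b went from 29.0 and 29.7 to 5.42 and 3.91 CPM, and reads shared by the pair make both values uncertain in size. Rsad2 (viperin) fell from 274 and 290.4 to 97.3 and 77.0 CPM and Cmpk2, its neighbour and a mitochondrial nucleotide kinase, from 110.4 and 121 to 36.8 and 35.4 CPM. Oas3, a sensor of double-stranded RNA, went from 422 and 418 to 187 and 165 CPM, and Mx1, a dynamin-like antiviral GTPase, from 95.6 and 102 to 30.3 and 27.8 CPM. In each of these genes the control libraries stood clear of the IL-6 libraries. The regulators of the programme were lower too, with Irf7 at -1.59 ± 0.11, Irf9 at -0.41 ± 0.09 and Stat2 at -0.77 ± 0.10.

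The promoters of these genes are shown because the members moved together. Interferon-stimulated response elements, the sites through which type I interferon acts on its target genes, were searched as GAAA, any 2 bases and GAAA again, on both strands, in the 250 bases before each start site, in RefSeq promoters of build GRCm38.p6. On the opposite strand the same letters read TTTC, any 2 bases and TTTC. The letters occurred in 2.97% of the 20741 promoters of the table. Of the 6 interferon-stimulated genes with the smallest p, 5 were matched to a promoter and 4 of these held the letters. All 6 were listed as known interferon targets, so this count is not a result about IL-6. Ifit3 and Ifit3b share most of their printed sequence and do not count as separate cases. Those 4 are printed 5′ to 3′ on the strand of the gene, with the match in capitals.
Ifit3, chr19:34583279-34583528, plus strand: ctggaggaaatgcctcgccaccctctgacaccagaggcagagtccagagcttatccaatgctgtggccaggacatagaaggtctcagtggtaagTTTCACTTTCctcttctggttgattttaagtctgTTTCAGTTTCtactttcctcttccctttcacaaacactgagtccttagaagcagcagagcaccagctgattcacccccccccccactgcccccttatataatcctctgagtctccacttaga
Ifit3b, chr19:34607707-34607956, plus strand: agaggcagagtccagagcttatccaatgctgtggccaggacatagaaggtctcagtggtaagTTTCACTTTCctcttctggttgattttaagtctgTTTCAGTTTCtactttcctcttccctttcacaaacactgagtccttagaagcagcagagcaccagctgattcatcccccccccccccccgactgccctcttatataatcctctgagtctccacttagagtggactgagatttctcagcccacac
Rsad2, chr12:26456453-26456702, minus strand: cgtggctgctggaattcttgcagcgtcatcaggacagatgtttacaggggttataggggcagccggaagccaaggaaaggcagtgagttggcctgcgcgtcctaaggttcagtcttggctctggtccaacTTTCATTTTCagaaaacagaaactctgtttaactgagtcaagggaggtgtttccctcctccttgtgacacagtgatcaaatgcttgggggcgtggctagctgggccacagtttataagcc
Oas3, chr5:120777660-120777909, minus strand: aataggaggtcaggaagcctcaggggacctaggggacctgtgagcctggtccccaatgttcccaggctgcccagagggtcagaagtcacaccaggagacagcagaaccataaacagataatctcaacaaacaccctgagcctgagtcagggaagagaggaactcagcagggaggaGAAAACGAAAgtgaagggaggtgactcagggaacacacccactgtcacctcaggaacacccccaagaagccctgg
Ifit3 and Ifit3b each held 2 matches, which began 156 and 122 bases before the start in Ifit3 and 188 and 154 bases before it in Ifit3b. The single match began 120 bases before the start in Rsad2 and 75 bases before it in Oas3. Of the 15 largest rises, 14 had a promoter in the table, and the STAT letters TTCC, any base and GGAA, which read the same on both strands and were held by 0.906% of all promoters, occurred in 0 of them. A match describes letters and was not tested as a site, and no match says only that the letters are not in this window. Shares over whole gene lists are not given, because a promoter was matched for only 72.8% of tested genes.

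Genes of interferon gamma-type defence and of antigen presentation by MHC class I fell in the same cells. Of 14 tested guanylate-binding proteins and immunity-related GTPases, which attack vacuoles of intracellular microbes, 13 fell and 0 rose, with a median of -1.27. Gbp9 went from 98.6 and 112 to 38.5 and 32.9 CPM (-1.56 ± 0.11, edgeR adjusted p = 2.17e-07), Irgm1 from 66.8 and 60.5 to 33.5 and 31.2 CPM and Igtp from 51.9 and 46.1 to 25.6 and 26.7 CPM. Gbp genes are near copies of each other, and Gbp6 (-2.34 ± 0.24) shares 29.0% of its exon length, so single values are uncertain. Of 23 MHC class I presentation genes 17 fell and 1 rose, with a median of -0.52. Tap1, a chain of the peptide transporter, fell from 153 and 140.1 to 82.3 and 81.8 CPM (-0.84 ± 0.08), and Psmb9, an immunoproteasome subunit, from 50.3 and 48.4 to 27.5 and 29.0 CPM (-0.81 ± 0.09). The heavy chains H2-K1 (-0.73 ± 0.10) and H2-D1 (-0.64 ± 0.10) were lower as well, and as members of a gene family with near-identical copies they are uncertain. Calr, a chaperone of the peptide-loading complex that also acts in general protein folding, was the 1 that rose (0.44 ± 0.08).

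MHC class II genes gave few calls. Of 17 tested class II and co-stimulation genes 2 rose and 0 fell at the edgeR threshold, a share near the background. Ctss, the cathepsin that trims the invariant chain, rose by 0.44 ± 0.08. Cd40, a co-stimulatory receptor, rose by 0.66 ± 0.18 with an edgeR adjusted p of 0.0248 that was 0.304 without WT control 1, 0.180 without WT control 2 and 0.167 without WT IL-6 2. Ciita, the master regulator of class II genes, was low, at 2.11 and 2.21 CPM in control and 2.69 and 3.27 CPM with IL-6, and was not called (edgeR adjusted p = 0.229).

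Chemokines split evenly. Of 20 tested, 6 rose and 6 fell. Those that rose included the monocyte attractants Ccl8, Ccl12 and Ccl7 (0.58 ± 0.08) and Pf4 (0.74 ± 0.08), a platelet and macrophage chemokine. Those that fell included the neutrophil attractant Cxcl2, from 900.1 and 844 to 402 and 486 CPM, the interferon-induced Cxcl10, from 66.4 and 81.4 to 43.8 and 42.2 CPM, and Ccl5 (-1.68 ± 0.24). Ccl2, the chief monocyte attractant, was abundant and level, at 650.1 and 657 CPM in control and 651 and 681 CPM with IL-6 (0.03 ± 0.08, edgeR adjusted p = 0.862). Receptors for chemoattractants rose more often than they fell, 10 against 4 of 26, although the rises were 5 without WT control 1 and 6 with limma voom. Next to Ltb4r1 and Ccr1, Fpr2, a formyl peptide receptor, went from 0.239 and 0.353 to 1.57 and 2.47 CPM, and Cysltr1, a receptor for cysteinyl leukotrienes, rose by 0.78 ± 0.11. P2ry13, an ADP receptor, fell (-0.62 ± 0.11). Within the leukotriene and prostaglandin pathway 5 of 24 genes rose and 4 fell, or 37.5% called against 18.3% over all tested genes. Ptgs2 (COX-2), the inducible prostaglandin synthase, rose by 1.01 ± 0.14, with an adjusted p of 0.0688 by limma voom, and Pla2g4a, which releases arachidonic acid, rose by 0.68 ± 0.09. Alox5, which makes the leukotriene precursor, fell (-0.87 ± 0.14), and so did Hpgd, which degrades prostaglandins (-1.51 ± 0.17). The receptor for leukotriene B4 therefore rose in cells whose 5-lipoxygenase transcript was lower.

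Matrix genes rose in number, 13 of 28 against 3 that fell, with a median of 0.52. Vcan, the proteoglycan versican, went from 1.91 and 2.25 to 11.5 and 10.7 CPM (2.42 ± 0.20, edgeR adjusted p = 1.21e-06). Tgfbi, a secreted adhesion protein, went from 464 and 469.9 to 968 and 952 CPM. Plau, the urokinase-type plasminogen activator, fell from 901 and 860.1 to 539 and 548 CPM (-0.70 ± 0.08). Among proteases, Mmp12, macrophage elastase, rose by 1.71 ± 0.18, Mmp8 by 2.19 ± 0.24 and Adam8 by 0.73 ± 0.09. Mmp19 also measured higher (1.71 ± 0.10), with 28.3% of its exon length shared with another gene. Fn1, fibronectin, had values of 4.30 and 11.3 CPM in control and 34.5 and 26.2 CPM with IL-6 and an edgeR adjusted p of 0.0452, which became 0.234 without WT IL-6 1 and 0.125 without WT IL-6 2. The summed stromal markers, which also vary between libraries of a group, are given above, and their part in the matrix values was not tested.

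Receptors for opsonised and dying cells rose more often than they fell, 15 against 5 of 32, and without WT control 1 or WT IL-6 1 the falls were 2. The inhibitory Fc receptor Fcgr2b rose by 1.30 ± 0.09, the high-affinity Fcgr1 by 0.66 ± 0.08 and the activating Fcgr3 by 0.48 ± 0.08. Itgax (CD11c) went from 5.86 and 6.13 to 36.8 and 33.9 CPM (2.56 ± 0.15, edgeR adjusted p = 4.13e-08). Pros1, a bridging ligand for the TAM receptors, rose by 1.34 ± 0.11, while the inhibitory receptor Cd300a fell (-1.26 ± 0.09). Complement genes gave 6 rises and 0 falls among 16 tested, or 37.5% called against 18.3% over all tested genes. C4b went from 1.55 and 1.32 to 5.95 and 9.65 CPM. C-type lectin and sialic acid receptors gave 9 rises and 4 falls of 20. Clec4n (dectin-2) rose by 1.62 ± 0.15, Clec4a2 by 1.43 ± 0.17 and the mannose receptor Mrc1 by 0.94 ± 0.08. The sialic acid receptor Cd33 fell from 190.4 and 197 to 71.0 and 80.3 CPM (-1.36 ± 0.08), and the galactose lectins Clec10a and Mgl2 fell too (-1.62 ± 0.23 and -2.17 ± 0.37). Of 18 paired immunoglobulin-like receptors 7 rose and 2 fell. Slamf9 rose by 0.82 ± 0.09 and Ly9, another SLAM family member, fell (-0.74 ± 0.09).

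The genes of cholesterol synthesis fell together. Of 26 tested genes of the pathway and its SREBP2 control, 23 fell and 1 rose, with a median of -0.93, and 22 were lower in each fit that left out a WT library. SREBP2 is the transcription factor that switches the pathway on when membrane sterol is short, and Insig1 holds it in the endoplasmic reticulum. Mvk, mevalonate kinase, went from 30.0 and 25.3 to 10.4 and 11.4 CPM (-1.35 ± 0.12, edgeR adjusted p = 2.37e-06). Cyp51, the lanosterol demethylase, went from 153 and 150.0 to 74.9 and 70.5 CPM, and Sc5d, a late step, from 89.5 and 80.7 to 39.7 and 37.9 CPM. Both control libraries lay above both IL-6 libraries at each of these steps. Lower values reached Srebf2 itself (-0.58 ± 0.09) and Insig1 (-1.09 ± 0.10). Insig2, a homologue of Insig1 that is not an SREBP2 target, was the 1 that rose (0.41 ± 0.08).

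Fatty acid genes fell with them, 13 of 23 against 2 that rose, with a median of -0.52. Acss2, which makes acetyl-CoA from acetate, went from 29.8 and 21.3 to 4.96 and 5.57 CPM (-2.29 ± 0.19, edgeR adjusted p = 1.35e-06). Scd2, a stearoyl-CoA desaturase, went from 679 and 471 to 116 and 154 CPM (-2.09 ± 0.24). Scd1, its homologue, measured 68.4 and 36.2 CPM in control and 5.71 and 7.82 CPM with IL-6, with an edgeR adjusted p of 0.0119 that was 0.136 without WT IL-6 1 and 0.0812 without WT IL-6 2 and 0.0987 with limma voom. Fads2, the first desaturase of polyunsaturated fatty acids, fell (-1.82 ± 0.14), as did Fasn, fatty acid synthase (-0.77 ± 0.11), and Srebf1, their activator (-0.79 ± 0.10). Acsl1, which activates long-chain fatty acids, rose from 62.7 and 67.5 to 111 and 118 CPM (0.82 ± 0.08). Of 23 genes of the sterol-sensing LXR receptors, efflux and lipid uptake 3 rose and 9 fell, and without WT control 1 the falls were 4. Msr1, the class A scavenger receptor, rose from 316 and 446 to 1228 and 1058 CPM (1.58 ± 0.13, edgeR adjusted p = 3.34e-06), and Scarb1, the class B receptor, fell (-0.70 ± 0.10). The efflux transporters Abca1 (-0.86 ± 0.14) and Abcg1 (-1.15 ± 0.17) were called lower, but their edgeR adjusted p was 0.0501 without WT control 1 for Abca1 and 0.0557 without WT control 1 for Abcg1. Cd5l, a secreted scavenger protein and LXR target, measured 116 and 76.0 CPM in control and 490.4 and 498 CPM with IL-6. Its groups were wide apart, yet the edgeR adjusted p of 0.00987 was 0.0503 without WT control 1, 0.0550 without WT control 2, 0.0821 without WT IL-6 1 and 0.0656 without WT IL-6 2 and 0.0511 with limma voom.

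Glycolysis genes rose in the same cells. Of 25 glucose uptake and glycolysis genes 13 rose and 3 fell, with a median of 0.32 that was 0.21 without WT control 2. The glucose transporter Slc2a1 went from 50.6 and 44.9 to 87.3 and 96.6 CPM (0.94 ± 0.09, edgeR adjusted p = 4.15e-06). Pgk1, a glycolytic kinase, rose by 0.70 ± 0.08, Ldha, which makes lactate, by 0.47 ± 0.09, and Slc16a3, which exports it, by 0.87 ± 0.10. Aldoc, a minor aldolase form, fell from 49.9 and 39.4 to 15.2 and 17.8 CPM. Of 22 hypoxia target genes, 10 rose and 1 fell, and with limma voom 6 rose. Ndrg1 rose by 1.13 ± 0.10 and P4ha2, a collagen prolyl hydroxylase, by 0.72 ± 0.13. Vegfa, the best known of these targets, was the 1 called lower, with 56.1 and 44.6 CPM in control and 19.0 and 20.8 CPM with IL-6 and an edgeR adjusted p of 0.00438 that was 0.111 without WT control 1, 0.126 without WT IL-6 1 and 0.0718 without WT IL-6 2 and 0.163 with limma voom. Nuclear genes of oxidative phosphorylation gave 1 rise and 1 fall in 29, or 6.9% called against 18.3% over all tested genes.

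Immediate early genes, which growth factor and stress signals induce within minutes, fell in 21 of 31 cases and rose in 3, with a median of -0.70 that was -0.43 without WT control 1. Fewer held in every fit. In each of the fits that left out a WT library 14 were lower and 0 higher, and limma voom gave 14 lower and 1 higher. Jun, an AP-1 subunit, fell from 97.6 and 80.0 to 42.8 and 43.5 CPM (-1.04 ± 0.10), and Klf2 from 14.7 and 15.3 to 5.00 and 4.98 CPM (-1.58 ± 0.15). The ERK feedback genes Dusp4 (-1.05 ± 0.08), Dusp6 (-0.72 ± 0.11) and Spry2 (-1.69 ± 0.18) were lower. Egr1 measured 82.0 and 48.3 CPM in control and 23.2 and 23.4 CPM with IL-6, and its edgeR adjusted p of 0.00793 became 0.138 without WT IL-6 1 and 0.0971 without WT IL-6 2 and 0.0557 with limma voom. Myc fell (-0.72 ± 0.09). Of 32 transcription factors of the macrophage lineage 4 rose and 10 fell, with 2 rises without WT IL-6 1 and 6 falls with limma voom. Maf fell (-0.61 ± 0.09), and Irf4, which acts in the response to IL-4, fell (-1.30 ± 0.17). Spi1 (PU.1), the core myeloid factor, changed by -0.14 ± 0.08 and was not called (edgeR adjusted p = 0.249).

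Receptors for growth factors changed in both directions, 8 up and 5 down of 25, and without WT IL-6 1 the falls were 3. Csf2rb, the shared chain for GM-CSF and IL-3, rose from 117 and 113 to 217 and 238 CPM (0.98 ± 0.08), with reads that may be shared with its near copy Csf2rb2, and Il3ra fell (-1.11 ± 0.11). Csf1r, the receptor for the M-CSF in the medium, changed by 0.07 ± 0.08 (edgeR adjusted p = 0.578), with 15.1% of its exon length overlapped by another gene. Pdgfc, a growth factor for mesenchymal cells, rose by 1.49 ± 0.12. Genes of alternative activation gave 9 rises and 8 falls of 26, with 5 falls by limma voom. Together with Il4ra, the IL-13 receptor chain Il13ra1 rose by 1.14 ± 0.17, F13a1, a transglutaminase, by 1.24 ± 0.22 and Il1rn, the IL-1 receptor antagonist, by 1.32 ± 0.15. Against these stood Clec10a, Mgl2, Irf4 and Cd163 (-0.63 ± 0.11). Arg1, the arginase often used as the marker of this state, was at 0.199 and 0.662 CPM in control and 0.992 and 0.590 CPM with IL-6 and was not called (edgeR adjusted p = 0.254), although without WT control 2 its edgeR adjusted p was 0.0445.

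Inflammatory cytokine and inflammasome genes gave 5 rises and 3 falls of 27, with 3 rises by limma voom. Called were 29.6% of these genes, 28.6% of the NF-kB genes and 36.4% of the Toll-like receptor genes below. Over all tested genes the share was 18.3%, and among the 3430 most abundant it was 27.0%. Tnf was abundant, at 584 and 545 CPM in control and 411 and 544 CPM with IL-6, and the lower control library and the higher IL-6 library nearly coincided (-0.24 ± 0.12, edgeR adjusted p = 0.215). Without WT IL-6 2 its edgeR adjusted p was 0.0234, in the direction of a fall. Il1b measured 91.2 and 112 CPM in control and 204 and 255 CPM with IL-6 (1.18 ± 0.18, edgeR adjusted p = 0.00135), which became 0.0954 without WT control 1 and 0.0710 with limma voom. Il18 fell (-0.70 ± 0.14) and Tnfsf14 (LIGHT) rose by 1.03 ± 0.12. Subunits and inhibitors of NF-kB gave 4 rises and 2 falls of 21, and the rises were 0 without WT control 1, without WT IL-6 2 and with limma voom. Toll-like receptors and their adaptors gave 3 rises and 5 falls of 22, and without WT control 1 or WT IL-6 2, or with limma voom, the falls were 3. Unc93b1, which carries the endosomal receptors, fell (-0.68 ± 0.08).

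Stress genes moved in both directions. Of 28 genes of the integrated stress and unfolded protein responses 7 rose and 11 fell, and the falls were 7 without WT control 1 and 5 without WT IL-6 1. Chaperones and disulfide isomerases of the endoplasmic reticulum were among the rises, with Pdia4 at 0.53 ± 0.08 and Creld2 at 0.55 ± 0.09. Amino acid and one-carbon genes driven by ATF4 were among the falls, with Asns, asparagine synthetase, going from 104 and 88.4 to 57.1 and 62.7 CPM (-0.68 ± 0.12) and Shmt2, the mitochondrial serine hydroxymethyltransferase, also lower (-0.66 ± 0.09). Aldh1l2, a mitochondrial folate enzyme, fell (-2.20 ± 0.27), with 14.1% of its exon length overlapped. Lysosomal genes gave 7 rises and 6 falls of 36, with 13 rises without WT control 1, 11 falls without WT control 2 and 3 falls by limma voom. Called were 36.1% of the lysosomal genes, against 18.3% over all tested genes. The cathepsins Ctsh (1.09 ± 0.09) and Ctsc (0.96 ± 0.10) rose, while Tfeb, the main transcription factor of lysosomes, and Gaa, acid alpha-glucosidase, fell (-0.81 ± 0.13 and -0.51 ± 0.10). Of 25 iron and NRF2 genes 6 rose and 7 fell. Hmox1, which degrades haem, rose by 1.14 ± 0.09 and Tfrc, the transferrin receptor, by 0.97 ± 0.11, while the iron exporter Slc40a1 (ferroportin) fell from 99.1 and 98.8 to 44.0 and 44.1 CPM (-1.17 ± 0.12). Iron import and export transcripts therefore moved in opposite directions.

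Calls among proliferation genes in WT were near or below the 18.3% over all tested genes, at 15.6% for S phase and 3.12% for mitosis. Of 32 replication and S phase genes 5 rose and 0 fell, with a median of 0.12, and the rises were 2 without WT control 1, 8 without WT control 2, 1 without WT IL-6 1 and 3 with limma voom. Ccne1, cyclin E1, rose by 0.62 ± 0.10. Of 32 mitotic genes 0 rose and 1 fell, and the rises were 5 without WT control 2 and 3 without WT IL-6 2. The fall was that of Kif23 (-0.47 ± 0.08). Cdkn1b (p27), a brake on the cell cycle, rose by 0.72 ± 0.10. The called share was 8.11% among ribosomal protein genes, 27.8% among osteoclast genes, 41.2% among monocyte genes and 42.1% among DNA methylation genes. Of 37 ribosomal protein genes 3 fell, and that count was 12 without WT control 2 and 1 with limma voom. Osteoclast genes gave 0 rises and 5 falls of 18, with 3 falls without WT IL-6 1 or by limma voom, and monocyte genes gave 4 rises and 3 falls of 17, with 2 rises without WT control 1 or WT IL-6 1 or by limma voom. Of 19 genes of DNA methylation and demethylation 2 rose and 6 fell, and the falls were 3 without WT control 1 or WT IL-6 1 or by limma voom. Dnmt3a measured 275 and 244 CPM in control and 175 and 183 CPM with IL-6, lower in both IL-6 libraries (-0.54 ± 0.25) but not called (edgeR adjusted p = 0.205). In a fit to the 4 WT libraries alone its edgeR adjusted p was 0.00261. Tet3, a demethylation enzyme, fell (-0.31 ± 0.07), and so did Idh1, which makes a cosubstrate of TET enzymes (-0.71 ± 0.07).

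**Figure D3:**
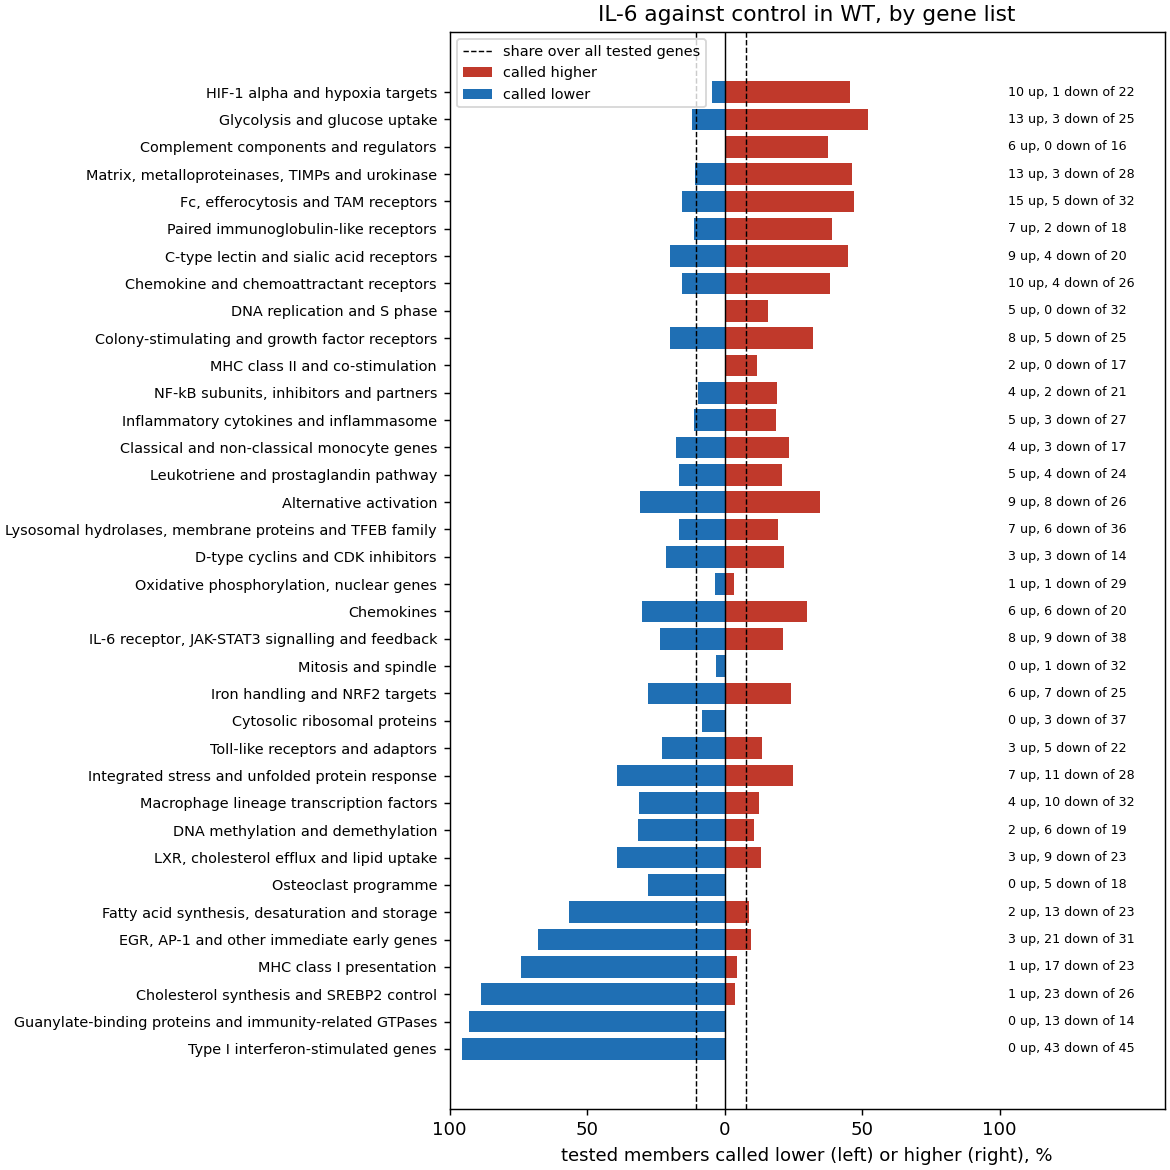
Share of tested members of each gene list called higher (red, to the right) or lower (blue, to the left) with IL-6 in WT, in percent, with the counts at the right. Dashed lines mark the shares over all tested genes, 7.91% higher and 10.4% lower, and the interferon list at the bottom reaches 43 of 45 members lower.

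HET macrophages given the same treatment served to show which changes differ by genotype. Dnmt3a, the gene of the genotype label, measured 166 and 248 CPM in HET control and 140.1 and 213 CPM in HET IL-6, against 275 and 244 CPM in WT control and 175 and 183 CPM in WT IL-6. The libraries of the genotypes overlapped, so the level of this transcript did not separate them. In HET 18.3% of genes were called, and 1010 of the 2515 genes called in WT were also called in HET in the same direction, with 112 in the opposite one. The difference between the responses was called for 1114 genes (8.12%), among them 623 of the 2515. The count of 1114 was 607 without WT IL-6 1, 716 without WT control 1 and 2102 without WT control 2. The difference is given as the WT response minus the HET response. For 13 of the 15 largest rises no difference was called, the other two being Ambp and Cd207. Ccl8 was close to a call, at -1.78 ± 0.52 (edgeR adjusted p = 0.0526). The largest falls differed more often, with calls for Ighm, Scd1, Egr3, Tox2, Acss2, Gpr162, Aldh1l2, Kit and Scd2 among the 15. Ltb4r1 changed by 5.11 ± 0.32 in HET, Ccr1 by 3.76 ± 0.14, Il4ra by 2.63 ± 0.09 and Timp1 by 3.96 ± 0.24, and the WT minus HET difference for Il4ra was 0.12 ± 0.12 (edgeR adjusted p = 0.633). Interferon-stimulated genes fell in HET too, 41 of 45 with a median of -0.79, and 5 of the 45 differed between the genotypes.

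The response of lipid synthesis genes differed between the genotypes. Of the 26 cholesterol genes 0 fell and 4 rose in HET, and the response of 23 was lower in WT. Mvk measured 23.3 and 26.4 CPM in HET control and 26.0 and 27.1 CPM in HET IL-6, a change of 0.10 ± 0.11, and the difference was -1.45 ± 0.16 (edgeR adjusted p = 2.40e-04). Scd2 changed by 1.40 ± 0.23 in HET, from 194 and 255 to 657 and 532 CPM, opposite in sign to WT, with a difference of -3.49 ± 0.34 (edgeR adjusted p = 0.00201). Of the 28 genes of the integrated stress and unfolded protein responses, 13 had a lower response in WT. Asns rose by 1.27 ± 0.12 in HET and fell in WT, a difference of -1.95 ± 0.16 (edgeR adjusted p = 7.02e-05). Aldh1l2 changed by 1.91 ± 0.24 in HET, with the overlap named above. Mitotic genes fell in HET, 26 of 32, and the response of 22 was higher in WT. Some genes rose in WT and were lower in HET. Cd34, a sialomucin, rose from 10.4 and 13.0 to 41.5 and 30.9 CPM in WT and measured 27.1 and 18.1 CPM in HET control and 12.8 and 10.1 CPM in HET IL-6, a difference of 2.63 ± 0.30 (edgeR adjusted p = 6.21e-04). Dmpk, a protein kinase of muscle, went from 16.7 and 23.6 to 72.4 and 54.9 CPM in WT and from 62.6 and 46.8 to 27.0 and 31.4 CPM in HET. Itgal, the LFA-1 alpha chain, went from 15.1 and 22.4 to 63.7 and 61.0 CPM in WT, and its WT call was lost at 0.0729 without WT control 1, 0.0857 without WT IL-6 1 and 0.0589 without WT IL-6 2 and 0.0874 with limma voom.

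**Figure D4:**
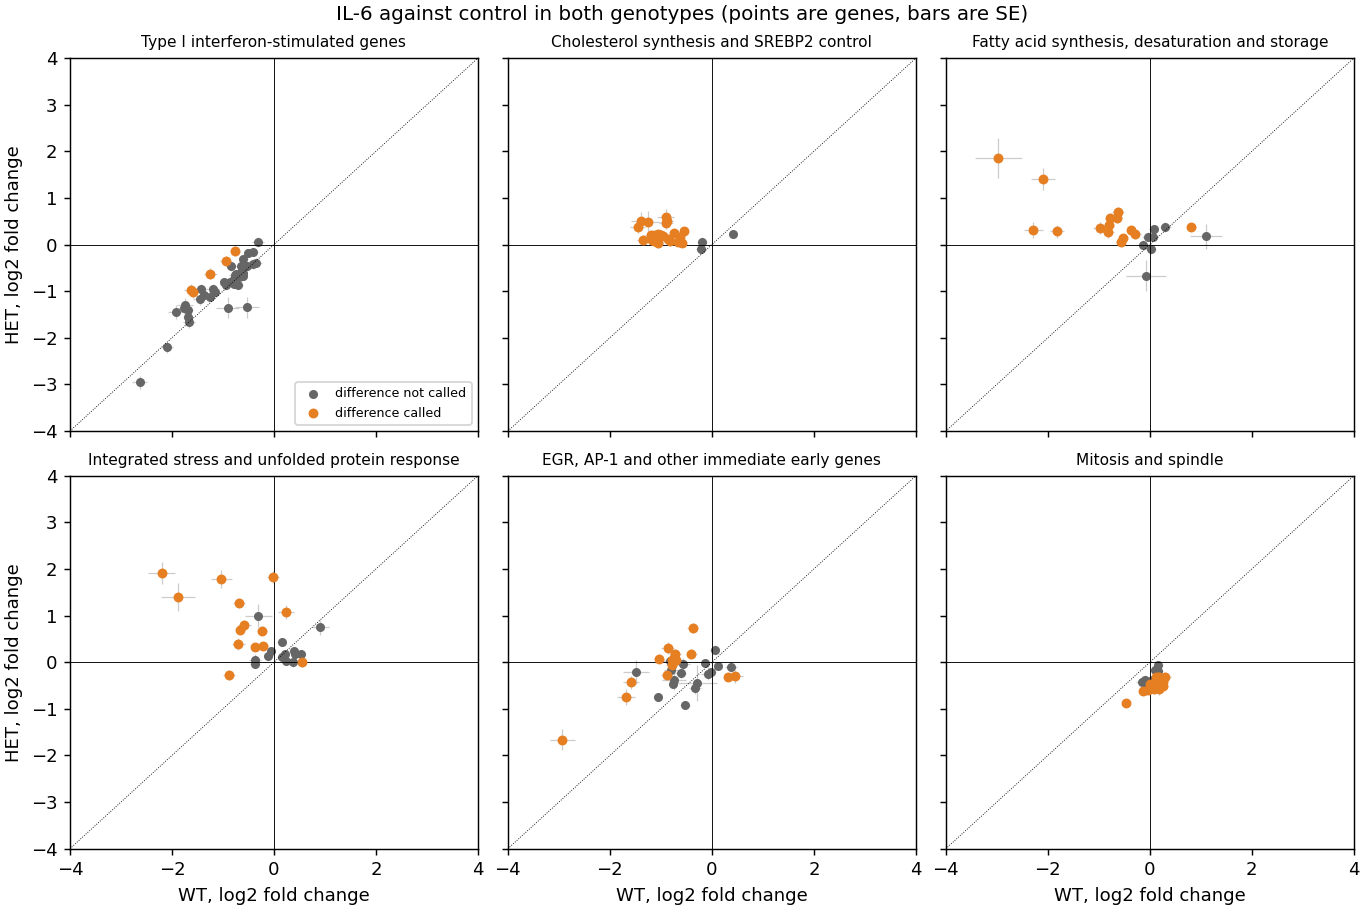
Log2 fold change with IL-6 in WT (x axis) against that in HET (y axis) for the tested members of 6 gene lists, with SE as bars. Orange marks members whose response differed between genotypes by edgeR, and the dotted line marks equal responses. Interferon-stimulated genes lie along the line, while most of the 26 cholesterol genes lie left of 0 for WT and near or above 0 for HET.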

How the data were processed

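Messenger RNA of 8 libraries was analysed, 2 for each genotype and treatment, from a table of raw gene counts that the authors deposited. Per the submitters' processing notes, build mm10 was used, with featureCounts 1.6.2, SAMtools 1.9, STAR 2.7.9a and fastp 0.12.4. Strand setting and annotation release were not given in the sources used here, so genes whose exons overlap another gene by over 10% are called uncertain. Columns were matched to libraries by name, and 26 gene symbols damaged into dates were not named.

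The counts were analysed with edgeR 4.0.16 (R 4.3.3). After filterByExpr (minimum count 10) and TMM scaling, genes were fitted by a robust quasi-likelihood model to all 8 libraries with 4 group means, which left 4 residual degrees of freedom. The 2-sided p-values were adjusted by the Benjamini-Hochberg method over 13721 genes. The SE of a log2 fold change is its size over the root of the F statistic. TPM values use the deposited exon lengths.

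The members and the 36 gene lists were chosen with earlier results of these data known. Named were the genes fixed by name, the 15 largest rises and falls with at least 5 CPM in 1 WT group, the 5 largest gains and losses in TPM, up to 6 members of a list with the smallest p with up to 2 more that moved against it, genes crossing between 0.5 and 2 CPM, and those differing most between genotypes. Genes beyond these were chosen after their values were seen. The largest rises, falls, gains and losses were taken only from called genes whose WT control and WT IL-6 libraries did not overlap. Alternatives were other scalings, no filter, DESeq2 1.42.0, limma 3.58.1 (voom with quality weights), offsets for GC content and length, a replicate block, WT libraries alone and leaving out each WT library. On data simulated for WT IL-6 against control over 13721 genes, the test recovered 55.2% of genes changed 1.5-fold, 64.2% of those changed 2-fold and 89.4% of those changed 4-fold, with 12 false among 151 calls. The simulation changed 200 genes and gave WT and HET the same spread, whereas the real WT libraries of a group were further apart. Its rates of recovery and false calls therefore do not carry over to the real WT calls. Some genes are not reported here.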

Additional observations from a re-analysis of the deposited data

Results flagged for a closer look

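The response to IL-6 differed between WT and HET, by edgeR's test of the difference itself at an adjusted p under 0.05 over all tested genes, for 26 of the genes fixed by name, the largest changes in CPM or TPM and the genes chosen for this difference. Genes chosen for this difference were called for it by the rule of choice. The count of 26 is therefore not comparable with the 8.12% called over all tested genes. Other members of the gene lists were not included. Plat, named for going from under 0.5 to at least 2 CPM in WT, differed as well (1.82, edgeR adjusted p = 0.0438). Values are the WT response minus the HET response on the log2 scale, so levels in the control libraries also enter them. Without IL-6, Cd207 measured 0.478 and 1.32 CPM in WT and 7.22 and 3.39 CPM in HET. Itgal measured 15.1 and 22.4 CPM in WT control and 67.85 and 40.1 CPM in HET control. Olfml3 measured 2.87 and 4.10 CPM in WT control and 18.5 and 10.1 CPM in HET control. Scd1 measured 68.4 and 36.2 CPM in WT control and 10.6 and 12.7 CPM in HET control. The difference between genotypes without IL-6 was not tested here.

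The response was higher in WT for Cd207 (5.96), a lectin that rose in WT and was lower in HET, and for Olfml3 (4.14), a secreted glycoprotein, Itgal (3.30), Cd34 (2.63) and Dmpk (2.57). Smaller differences in that direction were found for Il1b (1.16), Ambp (1.12), Ctsl (0.66) and Tmsb4x (0.55). The rise of Olfml3 in WT had an edgeR adjusted p of 0.00231, and the adjusted p was 0.167 with limma voom.

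The response was lower in WT for the lipid genes Scd1 (-4.83), Scd2 (-3.49) and Acss2 (-2.60). It was also lower for the amino acid and stress genes Aldh1l2 (-4.11), Phgdh (-3.28), the first enzyme of serine synthesis, and Trib3 (-2.82), an ATF4 target. Signalling and surface genes with a lower response in WT were Il6 (-3.47), Gpr162 (-2.28), Kit (-2.24), Ighm (-2.23), Ccl3 (-0.71), Ccl2 (-0.57) and Il6st (-0.38). Il6 was low in both genotypes, and in HET it measured 0.61 and 0.63 CPM in control and 4.81 and 2.31 CPM with IL-6. The transcription factors Egr3 (-1.27) and Tox2 (-0.96) fell further in WT, and Lgals3 (-0.88) and H2-D1 (-0.60) had lower responses there. Exons of Ctsl and Aldh1l2 overlap another gene by over 10%, so their values are uncertain.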

How the results depend on the processing

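The 2515 calls for IL-6 against control in WT stayed within 1.5 times that number with DESeq2 size factors, scaling to total counts, no filter, DESeq2, GC and length offsets and WT libraries alone. Limma voom called 1630 genes, 901 of them lower. Leaving out each WT library in turn gave 1569 to 3069 calls, 679 to 1343 higher and 890 to 1726 lower. For the difference between genotypes (1114 calls) the range was 607 to 2102, with 267 to 950 above and 340 to 1152 below HET, and GC and length offsets gave 1705, with 840 above. The cause was not tested. Named genes were chosen largely for a small p or a large change in these data. The share of them that keeps a call therefore does not carry over to all 2515 calls. Of 232 called named genes, 179 kept their call under every setting and 0 reversed.

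Whether same-numbered libraries share a mouse is not stated in the labels. Their deviations correlated at -0.214 in WT and 0.189 in HET, which cannot decide this with 2 libraries a group. A replicate block gave 1793 calls for WT and 506 for the difference, 203 above and 303 below HET. Pairing the WT numbers crosswise in the block, chosen after seeing the data, gave 4443 calls (2064 higher, 2379 lower) and 3121 for the difference (1477 above, 1644 below). With 2 libraries a group the WT spread rests on few degrees of freedom, and genes under a few CPM had large errors, with a median SE of 0.42 among the 3431 least abundant genes against 0.085 among the 3430 most abundant.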
